A study of Mus musculus with 6 samples.

Results

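Major histocompatibility complex (MHC) class II presentation was described through 10 genes, taken by symbol from the deposited expression table. They are the classical chain genes H2-Aa, H2-Ab1 and H2-Eb1, the DM genes H2-DMa, H2-DMb1 and H2-DMb2, the DO genes H2-Oa and H2-Ob, the invariant chain gene Cd74 and the transactivator gene Ciita. All 10 were among the 55421 genes listed, of which 24646 had a read, and all 10 were among the 13562 genes tested, those averaging 10 or more normalized reads. RNA-seq was done on splenic germinal centre B cells, 3 libraries from SFR KO and 3 from wildtype mice. The SFR KO allele is a deletion that starts in the first intron of Cd244, ends in exon 8 of Slamf6, and takes in Ly9, Slamf7, Cd48, Slamf1 and Cd84, which encode SLAM family receptors. Mice of both genotypes were C57BL/6, carried an AID-GFP reporter, which marks cells by activity of the gene for the mutating enzyme AID, and had been immunised with NP(18)OVA in alum. GFP+ cells were sorted on day 9. The labels name GFP as the sorted marker and give no ages. They give each sample its own number but not its own mouse, and every p-value below rests on the spread among these 6 samples, which may be technical.

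MHC class II molecules are pairs of an alpha and a beta chain that carry peptides from the endosome to the cell surface, where CD4+ T cells read them. The invariant chain guides new pairs to the endosome and leaves a fragment in the groove. DM exchanges that fragment for peptides, and DO, which in the B cell lineage binds DM, holds DM back. CIITA, the product of Ciita, binds no DNA of its own and is recruited to class II promoters by factors sitting on conserved boxes, RFX on the X box and NF-Y on the Y box. Germinal centre B cells use class II to show captured antigen to follicular helper T cells. C57BL/6 mice have no working E alpha chain, so that their E beta transcript from H2-Eb1 does not lead to an E molecule at the surface.

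Libraries held 28269310 to 33053024 reads in genes. The 7 deleted genes together had 5.47 to 16.8 normalized reads in SFR KO libraries, against 10457 to 20669 in wildtype libraries, and limma called all 7 lower. Summed reads of 8 B cell markers were 216693 to 223582 in SFR KO and 219978 to 232373 in wildtype libraries, and those of 8 germinal centre B cell markers were 234751 to 257395 in SFR KO and 246793 to 248945 in wildtype libraries. No marker of either list was at 0 in all libraries. SFR KO 1 stood apart from SFR KO 2 and SFR KO 3 in the class II genes and in other features given below, and results that rest on it are given with and without it.

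The promoter boxes of the class II genes are shown because they are the known point of action of CIITA. RefSeq promoters (GRCm38.p6, from 250 bases before to 50 bases after the start) were found for 7 of the 10 genes. An X motif, AACNNATGA, and a Y motif, TGATTGG, were searched on both strands; the letters were chosen after member promoters had been read. The 2 motifs do not overlap in these windows. In the windows below, written 5′ to 3′ on the gene's strand, capitals mark motif matches.
H2-Eb1, chr17:34305766-34305825, plus strand: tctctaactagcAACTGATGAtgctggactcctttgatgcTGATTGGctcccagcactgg
H2-DMb2, chr17:34145117-34145176, plus strand: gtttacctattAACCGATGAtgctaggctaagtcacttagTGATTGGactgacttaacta
H2-Ob, chr17:34238806-34238865, plus strand: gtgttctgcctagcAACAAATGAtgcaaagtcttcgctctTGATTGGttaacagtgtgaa
H2-Aa, chr17:34287854-34287913, minus strand: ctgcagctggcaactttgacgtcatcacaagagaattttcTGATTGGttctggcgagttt
H2-Oa, chr17:34092294-34092353, plus strand: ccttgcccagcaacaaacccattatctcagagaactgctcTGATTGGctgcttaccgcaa

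From the first base of X to the first base of Y the distance was 28 bases in H2-Eb1, 29 in H2-DMb2 and 26 in H2-Ob. The promoter of H2-DMb1 also held X and Y 29 bases apart. Its window of 60 bases lay wholly inside annotated exons, unlike those of H2-Eb1, H2-DMb2 and H2-Ob, and is not shown. H2-Aa and H2-Oa held the Y letters without these X letters, and the promoters listed for H2-DMa held neither. Among all 32851 promoters in the table, 2.85% held X and 7.82% held Y. X at 15 to 30 bases before Y on the same strand occurred in 6 promoters, of 6 genes, or 0.0183%. These were 4 class II genes (H2-Eb1, H2-DMb1, H2-DMb2 and H2-Ob), BC051142 and Tnfrsf9. A match describes the letters and does not show a factor bound there.

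Class II genes took 2.21%, 1.88% and 1.86% of all normalized reads in SFR KO 1, 2 and 3, against 1.93%, 1.97% and 1.96% in the wildtype libraries. Cd74 alone made up 1.15%, 0.958% and 0.960% in SFR KO 1, 2 and 3 and 1.01% to 1.03% in wildtype libraries. The SFR KO libraries lie on either side of the wildtype ones, with SFR KO 1 above them and the other 2 below.

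Levels of different genes were compared per kilobase of merged exons. Cd74 was the highest, at 188223 ± 19673 normalized reads per kilobase in SFR KO and 186957 ± 3108 in wildtype libraries (mean ± SD, n = 3 each, as for the levels that follow). Over the 6 libraries its mean was 4.85 times that of the next gene, H2-Eb1. The invariant chain transcript was thus above every classical chain in each library. H2-Eb1 stood at 39202 ± 3150 in SFR KO and 38180 ± 830.0 in wildtype libraries per kilobase. H2-Ab1 stood at 33010.1 ± 3313 in SFR KO and 32592 ± 1374 in wildtype libraries, and its range over the 6 libraries overlapped that of H2-Eb1. H2-Aa stood lower, at 20425 ± 2129 in SFR KO and 19162 ± 213 in wildtype libraries.

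The order of the classical chains depended on the length used. Merged exons of H2-Aa come to 3798 bases, and its longest transcript in the CCDS set, a set of agreed coding transcripts, to 1128. With the CCDS length its mean over 6 libraries was 66646 per kilobase against 19794 with merged exons. It then overlapped H2-Ab1 and lay above H2-Eb1. The mean of H2-Ab1 went from 32801 with merged exons to 69499, above H2-Eb1 at 45066. Cd74 was then 3.21 times the next gene, H2-Ab1. Within each library H2-Aa was below H2-Ab1 under either length. Their ratio was 0.565 to 0.626 with merged exons and 0.898 to 0.994 with the CCDS length. How far the alpha chain lay below the beta chain of the A molecule thus depended on the length used.

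The peptide editors were lower than the classical chains per kilobase. H2-DMb2 led them at 7812 ± 838 in SFR KO and 8059 ± 126 in wildtype libraries. H2-DMa, H2-Oa and H2-Ob followed with overlapping neighbours, at 3084 ± 177, 2871 ± 329 and 2565 ± 131 in SFR KO libraries and 3025 ± 161, 2603 ± 114 and 2421 ± 73.7 in wildtype libraries. With the CCDS length H2-Ob lay above H2-Oa, and no neighbours among these 3 overlapped. H2-DMb1 was the lowest of the 10, at 672 ± 77.6 in SFR KO and 653 ± 106 in wildtype libraries. Of the paralogous DM beta genes, H2-DMb2 thus gave most of the reads. These genes are alike in sequence, so reads could be split between them in counting. Ciita, a regulator, lay between the DO genes and H2-DMb1, at 1613 ± 30.4 in SFR KO and 1824 ± 34.4 in wildtype libraries.

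**Figure D1:**
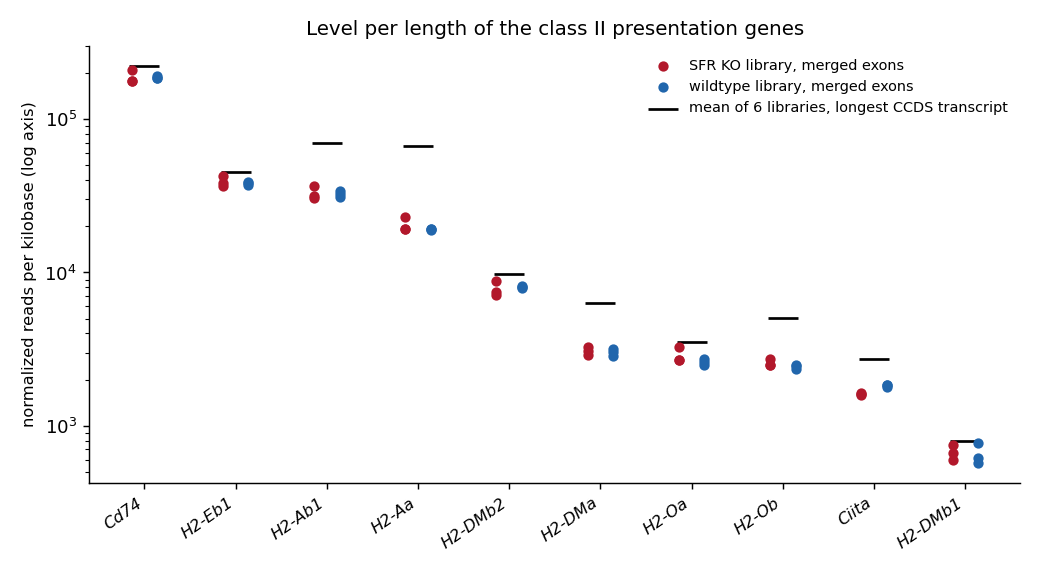
Normalized reads per kilobase on a log axis for the 10 class II genes, ordered by their mean; points are single libraries over merged exons (SFR KO left, wildtype right) and black lines the mean of 6 libraries over the longest CCDS transcript. Cd74 is highest and H2-DMb1 lowest under either length, and H2-Aa moves the most between lengths.

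The comparison of SFR KO with wildtype cells asks whether loss of these receptors went with a change in the class II program. None of the 10 genes was called by limma, the main test (adjusted p under 0.05), where 0.465% of all tested genes were. At an unadjusted p under 0.05 there was 1, Ciita, against 16.1% of all tested genes. Fitted log2 differences of SFR KO minus wildtype ran from -0.18 to 0.14 with a median of 0.03, and the median of all tested genes was -0.003. The groups did not overlap for 2 genes, Ciita (lower in SFR KO) and H2-Ob (higher), where 21.7% of tested genes had non-overlapping groups, 11.9% lower and 9.78% higher. For the 9 genes other than Ciita, 95% intervals of the log2 difference lay between -0.23 and 0.32, which is -14.5% to 24.8%. In RNA from a whole sort, fewer cells of a type and less RNA per cell cannot be told apart.

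**Figure D2:**
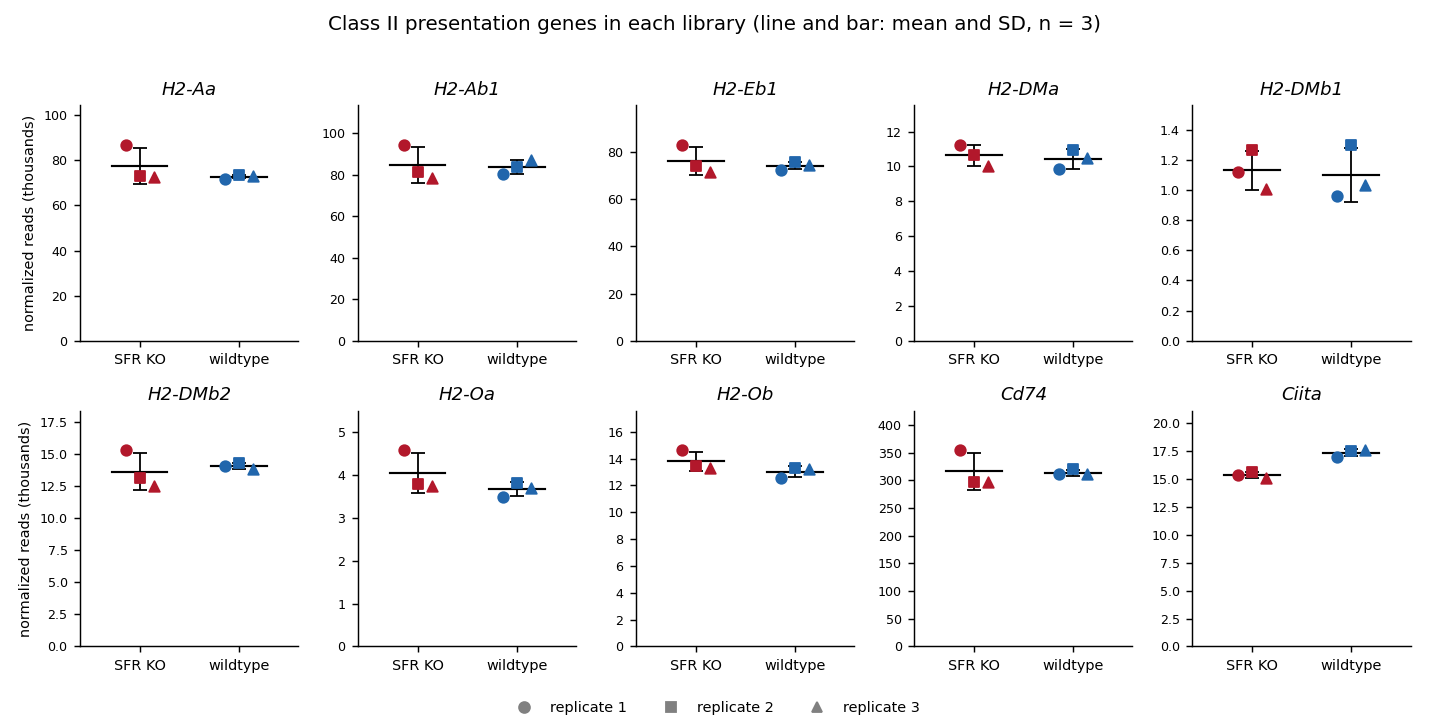
Normalized reads in kiloreads, on axes that start at 0, of each class II gene in the 3 SFR KO libraries (left, red) and the 3 wildtype libraries (right, blue), with mean and SD; symbols give the replicate number, which pairs nothing across genotypes. SFR KO 1 is above the other libraries for 8 genes, and the groups are apart for Ciita and H2-Ob.

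Among the classical chains, H2-Aa, which encodes the A alpha chain, had 86909, 73056 and 72761 normalized reads in SFR KO 1, 2 and 3, against 71931, 73547 and 72854 in wildtype 1, 2 and 3. The first SFR KO library was above all others, and the other 2 lay among the wildtype values. Its log2 difference was 0.09 ± 0.07 (SE; limma adjusted p = 0.619), and 0.003 ± 0.05 without SFR KO 1. H2-Ab1, for the A beta chain, had 94483, 81182.5 and 78644 normalized reads in SFR KO libraries, against 80157, 83718 and 87213 in wildtype libraries. The wildtype values fell between SFR KO 1 and SFR KO 3, and the log2 difference was 0.01 ± 0.08 (limma adjusted p = 0.950).

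H2-Eb1, for the E beta chain, had 83099, 74139.7 and 71389 normalized reads in SFR KO libraries, against 72463, 75634 and 74567 in wildtype libraries. Here too SFR KO 1 was the highest and SFR KO 3 the lowest of the 6, and the log2 difference came to 0.04 ± 0.07 (limma adjusted p = 0.849). Without SFR KO 1 the fitted differences of H2-Ab1 and H2-Eb1 were below 0, at -0.07 ± 0.05 and -0.03 ± 0.05. For neither gene did a direction hold across the libraries left out.

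Cd74, for the invariant chain, had 354167, 296623 and 297291 normalized reads in SFR KO libraries, against 310862, 319926 and 310913 in wildtype libraries. All wildtype values lay between SFR KO 1 and the other 2 SFR KO libraries. The log2 difference was 0.005 ± 0.09 (limma adjusted p = 0.986), and -0.08 ± 0.05 without SFR KO 1 (adjusted p = 0.464).

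Of the DM genes, H2-DMa, for the alpha chain, had 11246, 10630.5 and 10022 normalized reads in SFR KO libraries, against 9855, 10959 and 10480.1 in wildtype libraries. The groups overlapped (log2 difference 0.03 ± 0.06, limma adjusted p = 0.872). H2-DMa overlaps Brd2, a gene of the opposite strand with similar read numbers, and it is not known whether the counting used strand. Reads of the overlap cannot therefore be assigned to one or the other. For Brd2 the log2 difference came to -0.07 ± 0.07 (limma adjusted p = 0.664).

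H2-DMb1, a DM beta gene, had 1119, 1264.5 and 1004 normalized reads in SFR KO libraries, against 962.5, 1299.6 and 1029.9 in wildtype libraries. It was the lowest and most variable of the 10, and SFR KO 1 was not high in it. H2-DMb2, the other beta gene, had 15303.5, 13113.5 and 12524 normalized reads in SFR KO libraries, against 14051, 14312 and 13875 in wildtype libraries. SFR KO 1 was above and the other 2 below all wildtype libraries. The log2 differences were 0.05 ± 0.12 for H2-DMb1 and -0.05 ± 0.07 for H2-DMb2 (limma adjusted p = 0.895 and 0.786). Without SFR KO 1, H2-DMb2 stood at -0.14 ± 0.05 (unadjusted p = 0.0141, adjusted p = 0.138).

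H2-Oa, for the DO alpha chain, had the highest fitted difference of the 10, with 4573, 3795 and 3751 normalized reads in SFR KO libraries, against 3490.5, 3807.5 and 3691 in wildtype libraries. SFR KO 1 was well above the rest and the other 5 libraries overlapped. Its log2 difference of 0.14 ± 0.08 (limma adjusted p = 0.439) came to 0.04 ± 0.05 without SFR KO 1. H2-Ob, for the DO beta chain, had 14613, 13459 and 13331 normalized reads in SFR KO libraries, against 12573, 13309.7 and 13196 in wildtype libraries. All SFR KO values were above all wildtype values, by a margin smaller than the spread within either group. The log2 difference was 0.08 ± 0.05 (limma adjusted p = 0.485), and 0.04 ± 0.05 without SFR KO 1. H2-Oa shares exons on the opposite strand with BC051537, a non-coding gene at a mean of 65.6 normalized reads in SFR KO and 54.5 in wildtype libraries. H2-Eb1 lies over the antisense gene Gm20513 (a mean of 187 in SFR KO and 161 in wildtype libraries) and Cd74 over Mir5107 (58.7 over the 6 libraries).

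Ciita, at position 10480059 to 10528418 of chromosome 16 and away from the MHC, was the gene with the largest difference. It had 15398, 15657 and 15079 normalized reads in SFR KO libraries, against 17009, 17568.5 and 17585 in wildtype libraries. Every SFR KO library was below every wildtype library, and the gap was larger than the spread within either group. The mean was 15378 ± 289.5 in SFR KO and 17388 ± 328 in wildtype libraries (SD, n = 3 each), with a log2 difference of -0.18 ± 0.04, or 11.6% lower (95% interval -17.5% to -5.19%).

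The call on Ciita depended on the test. The unadjusted limma p was 0.003 and the adjusted p was 0.115, above the threshold. edgeR's quasi-likelihood test on recovered whole reads gave an adjusted p of 0.140 and called none of the 10, with 0.221% of tested genes called. DESeq2 on the same reads gave 0.0112 and called Ciita alone of the 10, with 4.70% of genes called. Limma with a weight per library gave 0.0443 for Ciita, with 4.65% of genes called. The authors' deposited table gives Ciita a log2 difference of -0.177 and an adjusted p of 0.0196, with 4.80% of its genes under 0.05. Without SFR KO 1 the log2 difference of Ciita was again -0.18 ± 0.04 (limma adjusted p = 0.0637). Dexi, which overlaps exons of Ciita on the opposite strand, had 594 ± 90.8 normalized reads in SFR KO and 747 ± 46.4 in wildtype libraries (log2 difference -0.34 ± 0.12, limma adjusted p = 0.204).

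**Figure D3:**
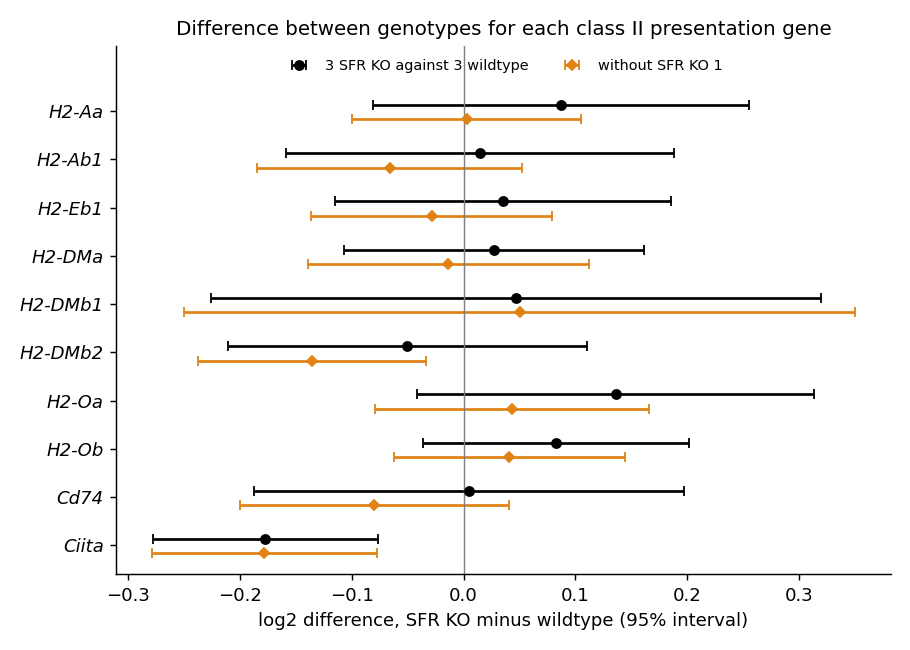
Log2 difference of SFR KO minus wildtype with its 95% interval for each class II gene, over all 6 libraries (black) and without SFR KO 1 (orange). With all libraries only the interval of Ciita leaves out 0, without adjustment; without SFR KO 1 that of H2-DMb2 does so as well.

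SFR KO 1 was the highest of the 6 libraries in 8 of the 10 genes, and 20.0% of all tested genes had their highest value there. Set against the mean of SFR KO 2 and 3, its log2 values were higher by a median of 0.22 over the 10 genes, with a range of -0.01 to 0.28. The median over all tested genes was -0.003, and 18.7% of them were above 0.22. H2-Oa (0.28), H2-DMb2 (0.26), Cd74 (0.25), H2-Aa (0.25), H2-Ab1 (0.24) and H2-Eb1 (0.19) deviated most. H2-Ob and H2-DMa deviated by 0.13 and 0.12, and Ciita (0.003) and H2-DMb1 (-0.01) hardly at all.

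Other features moved with SFR KO 1. The summed level of 8 resting or memory B cell markers was 18727 in SFR KO 1, 11156 in SFR KO 2 and 11148 in SFR KO 3, against 15726 to 19739 in wildtype libraries. Fcer2a, which encodes the low-affinity IgE receptor CD23 of follicular B cells, had 6271, 2546.5 and 2150.4 normalized reads in SFR KO libraries, against 4275 to 6382 in wildtype libraries. Mki67, a gene of dividing cells, had 42712, 64389 and 65493 normalized reads in SFR KO libraries, against 62044 to 71884 in wildtype libraries. Cr2, for a complement receptor, had 7905.5, 4234 and 4854 normalized reads in SFR KO libraries, against 7140.4 to 9265 in wildtype libraries. Fcer2a and Cr2 made up most of the sum, and SFR KO 1 was within the wildtype range in both. In Mki67, which is not in that sum, SFR KO 1 was below every other library. Other genes of the list differed from this: Cd38 had 1583.5, 1851 and 1875 in SFR KO libraries, against 1004 to 1357 in wildtype libraries, and Ighd had 1012, 1056.5 and 967.5 in SFR KO libraries, against 1109 to 1268 in wildtype libraries. Their part in the class II levels was not tested.

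Other cells that carry class II were represented by small sums. The 10 macrophage and monocyte markers summed to 6021, 4413 and 5289.7 normalized reads in SFR KO 1, 2 and 3, against 4045 to 6254 in wildtype libraries. The 9 dendritic cell markers summed to 2086, 1543 and 1694 in SFR KO 1, 2 and 3, against 1926 to 2346 in wildtype libraries, mostly from Flt3. SFR KO 1 was thus the highest of its group in both sums and within the wildtype range. Csf1r, the receptor gene of macrophage growth factor, had 523, 159 and 225 in SFR KO libraries, against 142 to 409 in wildtype libraries. Mpeg1, the largest part of the macrophage sum, had 2735, 3149 and 3624.5 in SFR KO libraries, against 2646 to 3015 in wildtype libraries. SFR KO 1 was thus the lowest of its group in Mpeg1 and the highest in the other genes of that list. It was also above all wildtype libraries in Csf1r, Adgre1, C1qa, C1qb, Cd68, Fcgr1, Mertk and Vcam1. In Lyz2 and Mpeg1 it was within the wildtype range. Of the dendritic cell markers, Xcr1 and Clec9a stayed between 3.0 and 9.4 in SFR KO and between 3.0 and 25.1 in wildtype libraries. Zbtb46 was at 14.2 to 31.8 in SFR KO and 6.2 to 25.1 in wildtype libraries. Itgax was at 75.5 to 101.5 in SFR KO and 69.1 to 106.8 in wildtype libraries. The 10 T cell markers, from cells that in mice carry no class II, summed to 4722 to 6987 in SFR KO and 4308 to 4618 in wildtype libraries. Most of this was Lck, at 3920 to 6155 in SFR KO and 3797 to 3927 in wildtype libraries. No marker of these lists was at 0 in all libraries, and their part in the class II levels was not tested.

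Across the 6 libraries most of the 10 genes varied together, given here as a description over few points that share library and depth. Pearson's r of each gene with the mean of the others was 0.78 to 0.96 for 8 genes, highest for H2-Eb1. It was 0.30 for H2-DMb1 and -0.15 for Ciita. Ciita thus did not follow the other members over all 6 libraries, where SFR KO 1 was high in most of them and not in Ciita. The r was not taken without SFR KO 1. Without that library the log2 differences between genotypes were below 0 for Ciita (-0.18), H2-DMb2 (-0.14), Cd74 (-0.08), H2-Ab1 (-0.07), H2-Eb1 (-0.03) and H2-DMa (-0.01). They were above 0 for H2-DMb1 (0.05), H2-Oa (0.04), H2-Ob (0.04) and H2-Aa (0.003). Of 8503 other genes averaging 200 or more normalized reads, 92 had an r above 0.9 with the class II mean. The 5 most alike were Tfb1m (0.986), which encodes a mitochondrial ribosomal RNA methyltransferase, Ankra2 (0.985), Ogg1 (0.977), a DNA repair glycosylase gene, Nmi (0.976) and Snrpa1 (0.975), a spliceosome gene. All 5 had their highest value in SFR KO 1, and their log2 differences between genotypes lay between -0.005 and 0.06.

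Ratios between 2 members within a library do not depend on library size. The 7 ratios taken were described without a test. The groups were apart for 5 of them and overlapped for 2, and they were apart for 19.5% of the ratios between any 2 tested genes. Several of the 7 share a gene, and Ciita and H2-Ob were each already apart by themselves, so these counts cannot show an excess. The ratios of H2-Aa to H2-Ab1, of H2-DMb1 to H2-DMb2 and of Cd74 to Ciita were not among those planned. The ratio of Cd74 to H2-Aa per kilobase was 9.22, 9.18 and 9.24 in SFR KO libraries, against 9.78, 9.84 and 9.65 in wildtype libraries. The 3 SFR KO libraries, SFR KO 1 included, were close together and below all wildtype ones, with a ratio of means of 0.945. The ratio of H2-Aa to H2-Ab1 was 0.622, 0.608 and 0.626 in SFR KO libraries, against 0.607, 0.594 and 0.565 in wildtype libraries. SFR KO 2 was only just above wildtype 1. H2-Aa has the lower GC content, 46.5% in its longest transcript, against 56.6% for Cd74 and 57.3% for H2-Ab1. With each library's trend with GC content removed, the log2 difference of Cd74 to H2-Aa was -0.006 in place of -0.08, and that of H2-Aa to H2-Ab1 -0.005 in place of 0.07. With the GC content of the CCDS transcripts, 51.0% for H2-Aa, they were -0.03 and 0.02.

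The ratio of DO to DM was higher in SFR KO libraries on both chains. H2-Oa to H2-DMa stood at 0.997, 0.875 and 0.917 in SFR KO libraries, against 0.868, 0.851 and 0.863 in wildtype libraries. SFR KO 2 was just above the highest wildtype library and SFR KO 1 far above it. The log2 difference was 0.11, also with the GC trend removed, and 0.06 without SFR KO 1. H2-Ob to the sum of H2-DMb1 and H2-DMb2 stood at 0.288, 0.303 and 0.319 in SFR KO libraries, against 0.271, 0.276 and 0.287 in wildtype libraries. SFR KO 1 was here the lowest of its group, close to wildtype 3. For H2-Ob to H2-DMb2 the log2 difference was 0.13, then 0.08 with the GC trend removed and 0.18 without SFR KO 1. The ratio of Cd74 to Ciita was 131, 108 and 112 in SFR KO libraries, against 104, 103 and 100.4 in wildtype libraries, and its log2 difference of 0.18 came to 0.10 without SFR KO 1. The ratios of the DM beta genes to H2-Ab1 and of H2-DMb1 to H2-DMb2 overlapped between genotypes.

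**Figure D4:**
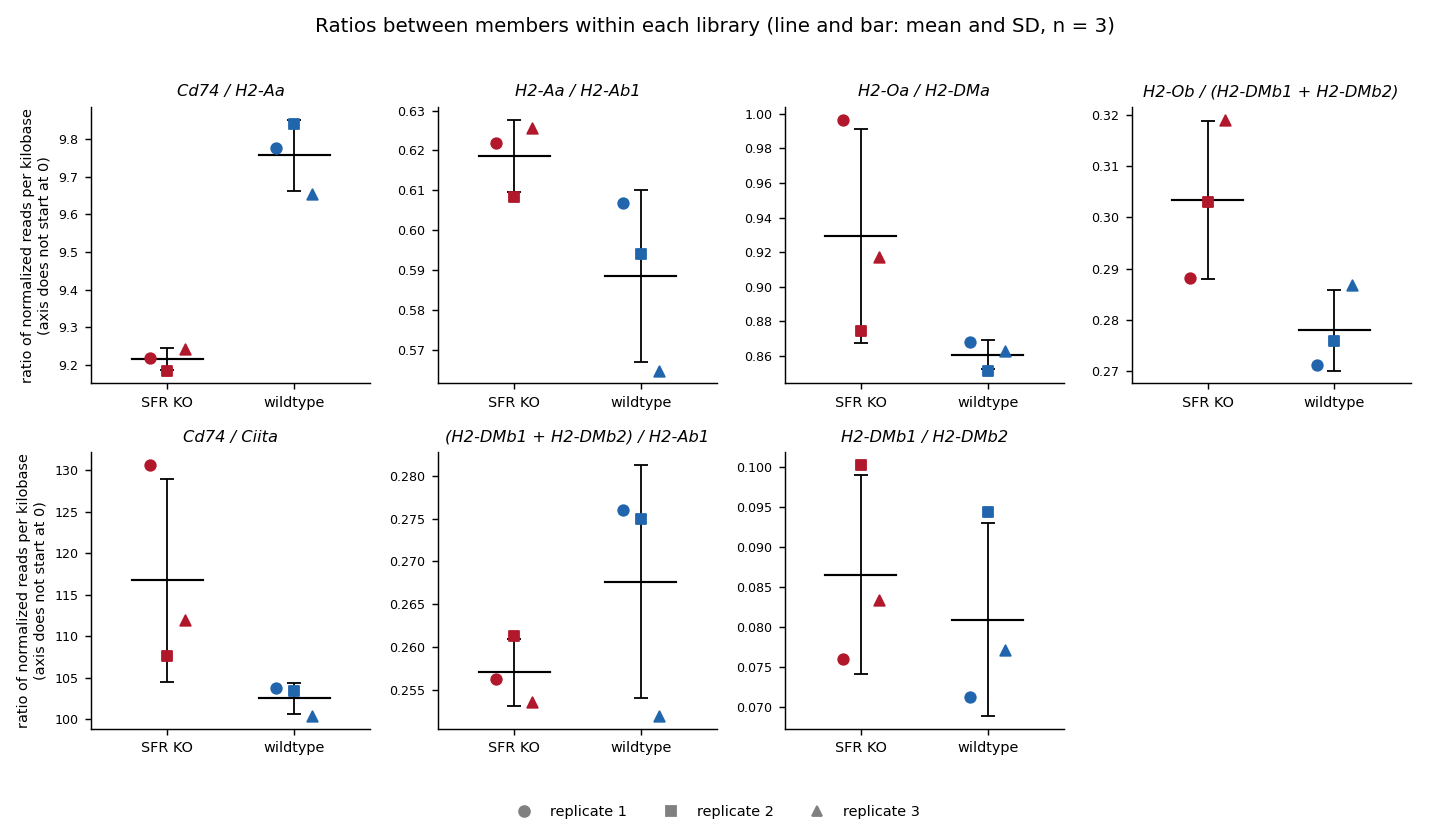
Ratios between class II genes per kilobase of merged exons in each SFR KO (left, red) and wildtype (right, blue) library with mean and SD; axes do not start at 0. The groups are apart in the first 5 panels and overlap in the last 2. The wide gap for Cd74 over H2-Aa comes to a log2 difference of -0.006 in place of -0.08 with the GC trend removed. With the GC content of the CCDS transcripts it comes to -0.03.

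Around the 10 genes, 58 further genes of class II and related presentation were listed. Limma called 1 of the 58, Cd83, lower in SFR KO cells, and none higher, beside 0.465% of all tested genes in either direction. At an unadjusted p under 0.05 there were 15, of which 6 were higher and 9 lower, beside 16.1% of all tested genes. edgeR called 0, beside 0.221% of all tested genes, and DESeq2 called 6, beside 4.70%. Limma called 9 of the 58 without SFR KO 1, when 480 of all tested genes were called, and 0 without any other single library. Among the 9 were B2m, Psmb9 and Nlrc5, higher in SFR KO, and Ifi30, Cst3, Cd82, Cd83 and Spi1, lower in SFR KO. The median log2 difference of the 58 was 0.007.

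Cd83 encodes a surface protein that holds class II at the cell surface by opposing the ubiquitin ligase MARCH1. It had 7513, 7673 and 7362 normalized reads in SFR KO libraries, against 8957, 9211 and 9077 in wildtype libraries. Its groups were far apart relative to their spread, and the log2 difference came to -0.27 ± 0.04 (limma adjusted p = 0.0464). The adjusted p was 0.0527 in edgeR, 3.23e-05 in DESeq2 and 0.0957 with the GC trend removed. Leaving out any library but SFR KO 1 gave 0.117 to 0.190, and leaving out SFR KO 1 gave 0.0160. The other 15 genes of trafficking and turnover were not called by limma, and the list's median was 0.002.

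Of 10 genes of endosomal processing none was called by limma, and DESeq2 called 2 of them, beside 4.70% of all genes; the median log2 difference was -0.05. Ifi30, for the reductase GILT that opens disulphide bonds of antigens, had 6949.7, 5991 and 6111 normalized reads in SFR KO libraries, against 7573, 8032 and 8323 in wildtype libraries. Lgmn, for asparaginyl endopeptidase, had 8561, 8255 and 8470.3 in SFR KO libraries, against 9462.5, 9970 and 9384 in wildtype libraries. Both had all SFR KO values below all wildtype values, as did 11.9% of all tested genes. The log2 differences were -0.33 ± 0.07 for Ifi30 and -0.19 ± 0.05 for Lgmn (limma adjusted p = 0.0627 and 0.111). Cst3, for the cathepsin inhibitor cystatin C, had a log2 difference of -0.17 ± 0.10 (limma adjusted p = 0.427) and SFR KO 1 was above all wildtype values while the other 2 were below.

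Of the 7 genes for factors on the class II promoter boxes, none was called by limma, edgeR or DESeq2. There was 1 at an unadjusted limma p under 0.05, beside 16.1% of all tested genes. The median log2 difference was 0.006. Rfx5, for the DNA-binding subunit of RFX, had 2843, 2777.5 and 2856 normalized reads in SFR KO libraries, against 3069.6, 3210.5 and 3121 in wildtype libraries. Rfxap, for another RFX subunit, had 568, 647 and 582.5 in SFR KO libraries, against 686, 661 and 672 in wildtype libraries. Neither overlapped between genotypes. These were 2 of the 7 genes, both lower in SFR KO, beside 11.9% of all tested genes. The log2 differences were -0.15 ± 0.05 and -0.17 ± 0.08 (limma adjusted p = 0.188 and 0.350). Nfyb, for an NF-Y subunit, stood at 0.09 ± 0.06 (limma adjusted p = 0.557).

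Of the 10 listed regulators of Ciita none was called by limma, and their median log2 difference was -0.05. DESeq2 called 1 of the 10, beside 4.70% of all genes. At an unadjusted limma p under 0.05 there were 4, of which 2 were higher and 2 lower, beside 16.1% of all tested genes. Groups did not overlap for 3 of the 10, of which 1 was higher and 2 lower, beside 21.7%. Prdm1, for the repressor Blimp-1 that silences Ciita in plasma cells, stood at 0.42 ± 0.18 with overlapping groups (limma adjusted p = 0.308). Zbtb32, for a repressor that acts with Blimp-1, stood at -0.60 ± 0.27, also overlapping (limma adjusted p = 0.316).

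Beyond H2-Eb1, the E region held H2-Eb2 and H2-Ea-ps. H2-Eb2 had 6928, 5897 and 5896 normalized reads in SFR KO libraries, against 5522, 5879 and 5553 in wildtype libraries. Its groups were apart by a small margin, with SFR KO 1 the highest, and the log2 difference was 0.14 ± 0.07 (limma adjusted p = 0.366). H2-Ea-ps, the pseudogene that stands for the missing E alpha chain, had 12.8, 20.8 and 14 normalized reads in SFR KO libraries, against 9.3, 4.1 and 7.1 in wildtype libraries. It was low in all 6, though the groups did not overlap, and the log2 difference came to 1.137 ± 0.45 (limma adjusted p = 0.259).

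The 8 MHC-linked members lie between positions 34092340 and 34316674 of chromosome 17 (GRCm38), a span of 224 kb with 16 tested genes. Cd74 lies outside it, at positions 60803848 to 60812652 of chromosome 18. Between H2-DMb1 and H2-Ob sit the class I genes Psmb9, Tap1, Psmb8 and Tap2, for proteasome subunits and the peptide transporter. Psmb9 had 7991, 9229 and 8667 normalized reads in SFR KO libraries, against 6374, 6548 and 7770.2 in wildtype libraries. Its groups did not overlap (log2 difference 0.33 ± 0.08, limma adjusted p = 0.115, DESeq2 adjusted p = 0.00457). Tap1, Psmb8 and Tap2 overlapped between genotypes, at 0.13 ± 0.08, 0.10 ± 0.06 and 0.05 ± 0.07 (limma adjusted p = 0.467, 0.445 and 0.779). In these 4 genes SFR KO 1 was not the highest library, unlike in most class II genes on either side. Of the 13 class I genes limma called none, DESeq2 called Psmb9 and B2m, beside 4.70% of all genes, and the median log2 difference was 0.05. B2m, the class I light chain gene, had 34433, 35182 and 34401 normalized reads in SFR KO libraries, against 29289, 28661 and 29433 in wildtype libraries, which lay well below (log2 difference 0.25 ± 0.05, limma adjusted p = 0.0522). Nlrc5, for the class I counterpart of CIITA, stood at 0.30 ± 0.16 with overlapping groups (limma adjusted p = 0.414).

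**Figure D5:**
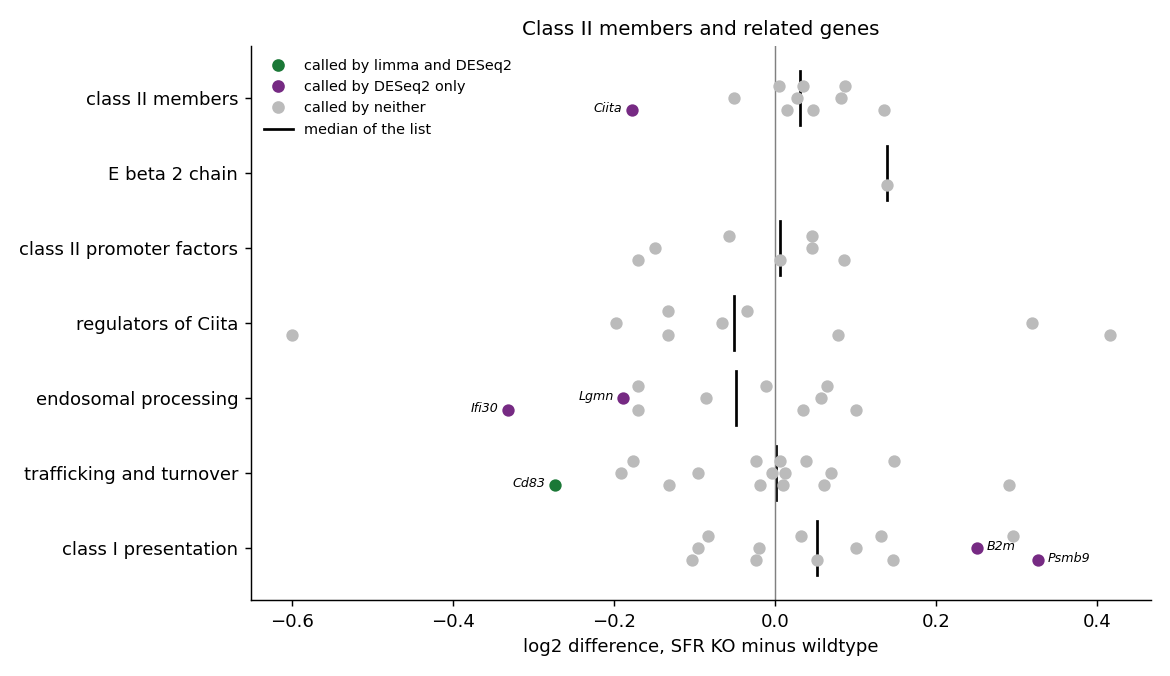
Log2 difference of SFR KO minus wildtype for the 10 class II genes and the related genes (H2-Ea-ps at 1.137 and a gene not reported here are left out), by list, with the median of each list as a black line. Green marks the gene called by limma and DESeq2 (Cd83), purple those called by DESeq2 alone and grey those called by neither; most points lie within 0.2 of 0.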

How the data were processed

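The submitters' processing notes name build GRCm38 and the tools DESeq2 1.14.1, featureCounts 1.5 and STAR 2.5. Of the annotation release, strand setting and filters the sources used here give nothing. What the authors deposited is, for each gene and library, a signal of read counts normalized to library size. Their table also holds the authors' log2 fold change with SE, test statistic (a score), p-value and adjusted p-value. Values were whole multiples of the value of 1 read in 100% of cases (tolerance 1e-06), so whole reads were recovered.

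Groups came from the genotype label and replicate numbers from accession order. The main test was limma 3.58.1 (R 4.3.3; lmFit, eBayes with trend; two-sided) on log2(normalized count + 1) for genes averaging 10 or more, adjusted by Benjamini-Hochberg over all genes tested and called under 0.05. The log2 scale understates changes of low genes. The main limma fit was tested on simulated data, with the same spread setting for every gene and no library that stood apart. The alternative fits were not tested in this way. Positions, lengths and GC content came from GENCODE M21. Alternatives were pseudocounts 0.5 and 5, a minimum mean of 50 or none, TMM and upper-quartile scaling, edgeR 4.0.16 and DESeq2 1.42.0 on recovered reads, library weights, a robust prior, removal of the GC trend (spline, 4 degrees of freedom) and each library left out; CCDS transcripts and the ratios' GC values were added after seeing the data.

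All members were named. Of each list called genes were named, or else up to 3 with the largest difference, and the 5 genes most alike. Genes called by DESeq2 alone, Fcer2a, Cr2, Cd38, Ighd, Csf1r, Lck and Mki67 were added after their values were seen. So were Mpeg1 and the other macrophage markers, Xcr1, Clec9a, Zbtb46, Itgax, Dexi, Brd2 and locus neighbours. Members, lists and motifs were chosen with earlier results of these data known. A gene of the lists is not reported here; it is kept in their counts and medians.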

Additional observations from a re-analysis of the deposited data

How the results depend on the processing

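The count of class II genes called was 0 of 10 in limma and in the other settings except DESeq2 and library weights, where it was 1 (Ciita); it was 0 without any single library. The count of the 58 related genes called, 1 in limma, was 2 with a minimum mean of 50, 3 without a filter, 3 with a robust prior, 8 with library weights and 6 in DESeq2, and 0 with upper-quartile scaling, edgeR or the GC trend removed by either transcript. With a library left out it ran from 0 to 9, with 9 without SFR KO 1 (among them B2m, Psmb9, Nlrc5, Ifi30, Cst3, Cd82, Cd83 and Spi1) and 0 without any other library. Over all genes the count was 63 in limma, 480 without SFR KO 1, 11 to 26 without any other library, 30 in edgeR, 489 in DESeq2, 630 with library weights, 161 with a robust prior, 129 without a filter, 98 with a minimum mean of 50 and 21 or 18 with the GC trend removed. The cause was not tested. Library weights turned the log2 differences of H2-Ab1 and Cd74 to -0.033 and -0.054. With a library left out, the direction changed for H2-Ab1 (-0.066 to 0.066), H2-Eb1 (-0.029 to 0.081), H2-DMa (-0.014 to 0.069), H2-DMb1 (-0.041 to 0.18), H2-DMb2 (-0.14 to 0.0090) and Cd74 (-0.080 to 0.048). It did not for H2-Aa (0.003 to 0.13), H2-Oa (0.04 to 0.19), H2-Ob (0.04 to 0.11) and Ciita (-0.19 to -0.16). For Ciita the limma adjusted p ran from 0.0443 to 0.318 over the limma settings, and the difference was -0.13 with the GC trend removed. No paired analysis was possible because the labels give no replicate numbers shared between genotypes. With 3 libraries a group, the intervals given set how precisely each difference is known.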
